A study of Mus musculus with 8 samples.

Results

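The licensing and copying of DNA at the entry to S phase depends on a set of genes that are transcribed together. The 42 genes described here code for the MCM helicase and the factors that load and start it, for polymerase, clamp and nucleotide-supply proteins, for proteins that protect or repair the fork, for chromatin factors that follow it, and for E-type cyclins. They were taken as a named list of G1/S and DNA replication genes, by gene symbol, and all 42 were found among the 32285 genes of the count tables. In quiescent cells the RB family of proteins holds E2F transcription factors in check, and cyclin-dependent kinases relieve that hold before S phase. The E7 protein of high-risk human papillomaviruses binds RB family proteins, and E6 directs the p53 protein to degradation. YAP is the transcriptional coactivator at the end of the Hippo pathway, and the S127A form escapes one of its inhibitory phosphorylations.

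Single viable cells were sorted from the tongue epithelium of 8 to 16 week old littermate mice at day 15 and profiled by 3' droplet sequencing, with 2 libraries per group. All mice carried Krt14-CreERT and LSL-rtTA, and by the methods of the study a tetON H2B-GFP reporter, so that tamoxifen given into the tongue in 3 doses and doxycycline in the chow switched on tetON transgenes in cells derived from Krt14-expressing basal epithelium. N mice carried no effector transgene, E mice carried tetON_E6-E7, Y mice carried tetON_YAP1S127A, and EY mice carried both. Reads counted to mouse Yap1 were at 31.5 to 46.1 CPM (counts per 1000000) in epithelial cells of N and E and at 174 to 446 CPM in Y and EY, as the labels say. Transcripts of E6-E7 were not analysed here, and cells in which no recombination had occurred could not be set aside. Libraries are called N1, N2, E1, E2, Y1, Y2, EY1 and EY2.

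Epithelial cells were those in which the keratins Krt5, Krt14, Krt15, Krt13 and Krt6a made up at least 0.5% of the molecules counted (unique molecular identifiers, UMIs) and in which the immune gene Ptprc was not seen. They numbered 12957 of 42550 cells, from 170 in EY1 to 4055 in E1, and held 2454816 to 55154619 UMIs per library. The keratins and the other epithelial markers were high in all 8 libraries (24243 to 28472 CPM summed over 11 markers), whereas the endothelial markers Cdh5 and Cldn5 and the melanocyte marker Tyrp1 were at 0 throughout. Of 6 fibroblast markers, Dcn alone exceeded 2.79 CPM in any library, at 1099 and 1223 in N, 970 and 720 in E, 805 and 336 in Y, and 252 and 27.0 in EY. Of 6 gland markers, Psca and Ltf were highest in N2 (372 and 342 CPM) and Krt8 and Krt18 in EY1 (164 and 194 CPM). The 10 immune markers summed to 41.2 to 62.8 CPM in N and E, 91.5 and 165 in Y, and 1373 and 453 in EY, where S100a8 alone held 1148 and 370, and Ptprc was at 0 by the selection. The part of these other markers in the results was not tested. Within the cells, UMIs of Mki67 or Top2a, which mark cells in or near division, separated 7365 marked cells from 5592 unmarked cells. Each library pair shared at most 19 cell barcodes.

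In epithelial cells without Mki67 or Top2a, the summed level of the 42 genes was higher in all 4 libraries of mice with the E6-E7 transgene than in the other 4, whereas in marked cells and over all epithelial cells the libraries overlapped. In the unmarked cells, their UMIs summed to 6.05 and 5.81 per 10000 UMIs in the N libraries, 16.2 and 11.3 in those of E, 6.20 and 6.94 in those of Y, and 14.9 and 18.1 in those of EY. All 4 libraries with E6-E7 (15.1 ± 2.89, SD, n = 4) thus stood above all 4 without it (6.25 ± 0.486, n = 4), and Y lay close to N. In marked cells the same sum was 18.0 and 9.17 in N, 30.9 and 15.5 in E, 18.0 and 30.3 in Y, and 23.4 and 32.3 in EY, with the libraries of the groups interleaved. Over all epithelial cells it was 12.4 and 7.49 in N, 24.9 and 13.4 in E, 11.8 and 20.8 in Y, and 19.6 and 31.2 in EY. Nasp, Pcna and Cdca7 alone held 16.9 to 34.0% of the UMIs of the 42 genes in unmarked cells. With these 3 left out, the sum was still 8.18 to 15.1 per 10000 with E6-E7 and 3.83 to 5.10 without it. Summed over cells, more cells with a transcript and more transcripts per cell cannot be told apart.

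**Figure D1:**
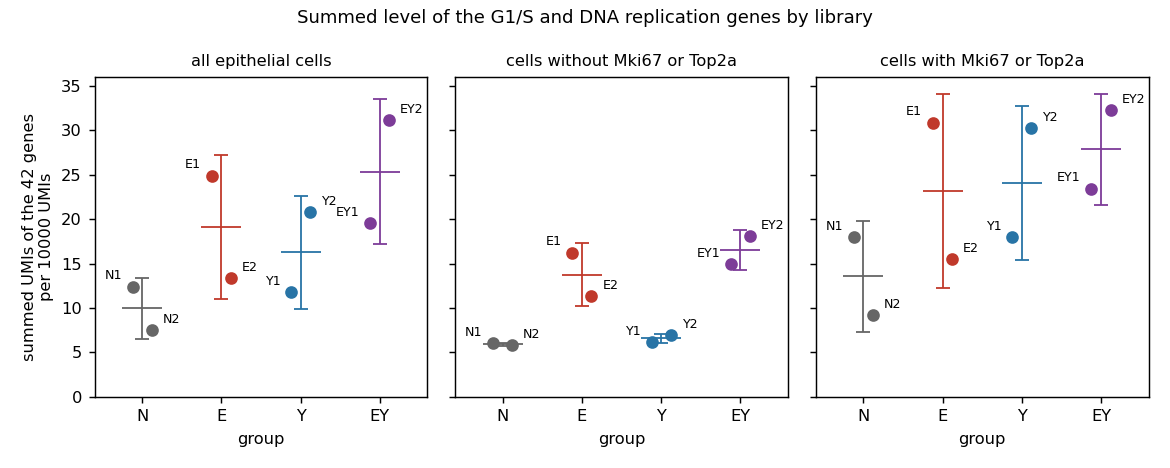
Summed UMIs of the 42 genes per 10000 UMIs (linear axis from 0) in each library, for all epithelial cells, cells without and cells with Mki67 or Top2a. Points are libraries, horizontal bars the mean and vertical bars the SD of 2 libraries; in cells without Mki67 or Top2a, E and EY lie between 11.3 and 18.1 and N and Y between 5.81 and 6.94.

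To test the E6-E7 transgene gene by gene, UMIs of unmarked cells were summed per library and fitted with an additive model of both transgenes across all genes (edgeR quasi-likelihood test, two-sided). A gene was called when its Benjamini-Hochberg adjusted p was under 0.05. Of the 42 genes, 33 rose with E6-E7, none fell, and all 42 log2 fold changes were positive with a median of 1.75, where 1.35% of all 11369 genes tested were called higher and the median of all genes was -0.02. In 37 of the 42, every library with E6-E7 was above every library without it, against 4.08% of all genes. The count depended on single libraries: leaving out N1 or EY2 gave 17, N2 16, E1 9, Y1 13 and Y2 15, and none of the 33 changed direction in any of these fits. With cells thinned to 2000 UMIs the count was 20 of 31 genes tested, where the cells were classed as unmarked before thinning. Without the filter on low counts it was 40, these 33 among them, where 582 of all 20087 genes were called higher. Genes that were low without E6-E7, such as Cdc6, Cdc45 and E2f8, can have passed that filter only through libraries with it.

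The helicase subunits Mcm2 to Mcm7, which encircle DNA as a ring and unwind it, all rose. Mcm2 (chr6:88883474-88898780, GRCm38, minus strand) was at 6.92 and 7.11 CPM in N, 33.7 and 22.2 in E, 7.85 and 8.75 in Y, and 28.3 and 32.8 in EY. The lowest library with E6-E7 was thus well above the highest without it, with a log2 fold change of 1.95 ± 0.17 (SE; adjusted p = 0.00481, edgeR). Mcm3 was at 10.8 and 8.53 CPM in N, 71.2 and 35.1 in E, 15.9 and 23.6 in Y, and 82.3 and 113 in EY, the widest change among the subunits (2.38 ± 0.25; adjusted p = 0.00893, edgeR). Mcm4 stood at 13.4 and 14.2 CPM in N, 66.5 and 35.3 in E, 19.2 and 18.6 in Y, and 43.0 and 79.8 in EY (1.82 ± 0.24). Mcm5 stood at 9.02 and 11.8 CPM in N, 49.9 and 27.2 in E, 12.4 and 15.5 in Y, and 41.2 and 62.4 in EY (1.93 ± 0.23). In both, the groups with and without E6-E7 did not overlap. Mcm6 was at 12.6 and 10.4 CPM in N, 72.1 and 34.2 in E, 18.6 and 24.6 in Y, and 58.5 and 75.8 in EY (1.93 ± 0.26), and Mcm7, at 17.6 and 22.7 in N, 62.1 and 41.8 in E, 17.8 and 23.2 in Y, and 63.1 and 82.3 in EY, gave 1.61 ± 0.20. For all 6 subunits E1 was above E2, and both Y libraries were above both N libraries for 5 of the 6, all but Mcm7.

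Of 4 genes that load, start or license the helicase, 3 rose. Cdc6, which helps to load MCM rings at origins, was rare in unmarked cells: it had 4 and 1 UMIs in N, 48 and 8 in E, 7 and 5 in Y, and 4 and 27 in EY, or 0.168 and 0.237 CPM in N, 2.04 and 1.24 in E, 0.555 and 0.625 in Y, and 3.66 and 9.75 in EY. Its log2 fold change of 3.43 ± 0.44 was the highest of the 42 (adjusted p = 0.00926, edgeR), and rests on these few molecules. At these levels Cdc6 can have passed the filter on low counts only through libraries with E6-E7, so its rank is no independent result. Cdc45, a cofactor of the active helicase, was at 1.09 and 0.237 CPM in N, 4.41 and 2.80 in E, 0.873 and 1.12 in Y, and 6.40 and 9.02 in EY (2.53 ± 0.40; adjusted p = 0.0185, edgeR). Gmnn, whose product geminin blocks a second round of loading, was at 16.1 and 11.8 CPM in N, 37.7 and 23.3 in E, 15.1 and 21.2 in Y, and 46.6 and 75.4 in EY (1.44 ± 0.25; adjusted p = 0.0271, edgeR). Gins2, another helicase cofactor, did not pass (1.04 ± 0.24; adjusted p = 0.101, edgeR) although its 19.2 to 44.8 CPM with E6-E7 lay above the 11.5 to 16.1 without it.

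Of 8 genes for synthesis and the sliding clamp, 6 rose, with log2 fold changes of all 8 from 0.65 to 2.64. Pcna, the clamp itself, was at 49.2 and 50.5 CPM in N, 91.8 and 74.8 in E, 49.6 and 48.1 in Y, and 91.4 and 80.9 in EY, so its libraries split cleanly by E6-E7 and hardly differed within either set (0.78 ± 0.11; adjusted p = 0.0138, edgeR). The clamp loader subunit Rfc2, the flap nuclease Fen1, the primase subunit Prim1, the single-strand binding subunit Rpa2 and Dscc1, part of an alternative clamp loader, were also called. The polymerase subunits Pola1 (0.78 ± 0.18) and Pold3 (0.65 ± 0.16) were not. Among nucleotide enzymes, Rrm2, the regulatory subunit of ribonucleotide reductase, was at 3.77 and 2.13 CPM in N, 15.2 and 7.46 in E, 6.58 and 4.75 in Y, and 80.5 and 57.4 in EY. EY was therefore several times higher than E, and the additive log2 fold change was 2.75 ± 0.41 for E6-E7 (adjusted p = 0.0143, edgeR). Thymidylate synthase, Tyms, rose by 1.41 ± 0.25 on the log2 scale, and the catalytic subunit Rrm1 (0.88 ± 0.18) just missed the threshold (adjusted p = 0.0584, edgeR).

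Among 8 genes of fork protection and repair, 5 rose. Ung, the uracil glycosylase, was at 5.70 and 2.61 CPM in N, 21.9 and 17.4 in E, 6.27 and 9.99 in Y, and 20.1 and 28.9 in EY (1.89 ± 0.27; adjusted p = 0.0136, edgeR). No library with E6-E7 fell below 17.4. Tipin, a fork-protection factor, the nuclease Exo1, the recombination factor Rad51ap1 and Dtl, a substrate receptor for the destruction of licensing factors, were the others called. The checkpoint mediator Clspn was not called (2.10 ± 0.62; adjusted p = 0.213, edgeR): E2 at 1.86 CPM lay within the range of N and Y (1.59 to 2.87) while EY2 reached 27.1. Blm and Usp1 also missed the threshold.

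Of 10 chromatin genes, 8 rose. Uhrf1, which brings maintenance methylation to new DNA, was at 3.52 and 4.26 CPM in N, 18.9 and 11.7 in E, 4.05 and 7.996 in Y, and 15.5 and 45.5 in EY (2.24 ± 0.36; adjusted p = 0.0185, edgeR). The remodeller gene Hells was at 13.4 and 20.4 CPM in N, 85.1 and 54.9 in E, 18.2 and 31.2 in Y, and 83.2 and 126 in EY (2.10 ± 0.25; adjusted p = 0.00893, edgeR). Both split by E6-E7, and the gap for Hells was wide, with 54.9 CPM the lowest value with E6-E7 and 31.2 the highest without it. Nasp, a histone chaperone, was at 74.9 and 77.9 CPM in N, 151 and 95.6 in E, 75.7 and 89.3 in Y, and 183 and 186 in EY, a smaller change (0.93 ± 0.17; adjusted p = 0.0342, edgeR). Cdca7 had the lowest log2 fold change of the 42 (0.38 ± 0.16; adjusted p = 0.41, edgeR), and its CPM of 74.4 and 76.3 in N, 93.7 and 126 in E, 67.2 and 46.4 in Y, and 67.7 and 63.5 in EY overlapped. Ubr7 (0.48 ± 0.16) and Usp1 (0.59 ± 0.16) had the next lowest changes.

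The genes of G1/S control all rose. Ccne1, cyclin E1, was at 2.31 and 1.90 CPM in N, 13.2 and 5.75 in E, 3.01 and 3.25 in Y, and 10.1 and 26.3 in EY (2.39 ± 0.36; adjusted p = 0.0143, edgeR). Ccne2 was at 1.01 and 1.66 CPM in N, 7.47 and 6.68 in E, 4.12 and 4.62 in Y, and 9.14 and 13.0 in EY (1.94 ± 0.30; adjusted p = 0.0179, edgeR). For both cyclins the Y libraries also lay above the N libraries. E2f8, a repressor of the E2F family that is itself made at this stage, was at 1.09 and 0.237 CPM in N, 5.35 and 2.33 in E, 1.03 and 0.750 in Y, and 4.57 and 9.38 in EY (2.59 ± 0.46; adjusted p = 0.0292, edgeR), and the value of N2 stands for 1 UMI. The highest changes after Cdc6 were those of Rad51ap1 (2.82 ± 0.55) and Rrm2.

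**Figure D2:**
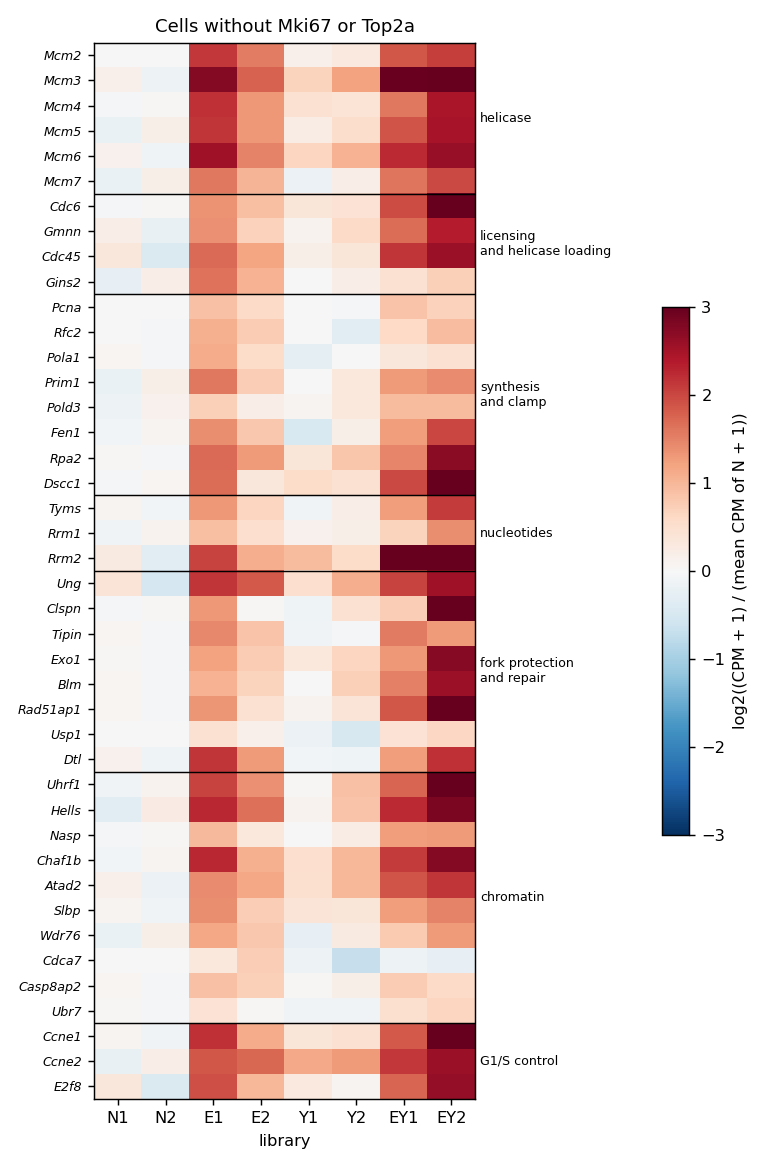
Level of each of the 42 genes (rows, by role) in each library (columns) in cells without Mki67 or Top2a, as log2 of CPM plus 1 over the mean of N plus 1, with the colour scale ending at -3 and 3. Columns E1, E2, EY1 and EY2 are red in nearly every row, Y1 and Y2 are pale, and Cdca7 stays near 0.

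Each transgene alone was also set against N in unmarked cells, in contrasts added after the E6-E7 effect had been seen. E against N gave 42 of 42 positive log2 fold changes with a median of 1.44, but only 3 calls, Mcm2, Mcm3 and Ccne2, where 0.416% of all genes were called higher. A further 36 were under 0.05 unadjusted, where 588 of all 11786 genes were, called ones included. DESeq2 called 23, where it called 134 of all 11786 genes higher. Single libraries decided the edgeR calls: none was left without N1, without N2 or without E1, and there were 8 without E2 and 5 without Y1 or without Y2. Y against N called none (0.662% of all genes were higher and 4 of the 42 were under 0.05 unadjusted), with a median of 0.27. Of all 11786 genes, 1659 were under 0.05 unadjusted in this contrast. There DESeq2 called 1, where it called 323 of all 11786 genes higher. EY against N called 36, all higher, with a median of 2.13, against 9.51% of all genes. This count fell to 17 without N2, to 1 without N1 or without EY2 and to 20 with thinned cells. The YAP effect in the additive model called 5 of the 42 higher, Atad2, Cdc6, Rrm2, Ccne2 and Mcm3, where 6.21% of all genes were called higher, and in no gene of the 42 were all libraries with YAP1S127A above all without it, against 9.77% of all genes. The YAP counts were 0 without E2 or without EY2 and 1 or 2 without N1, N2, E1 or Y2. The highest log2 fold changes for YAP were those of Cdc6 (1.94 ± 0.43), Rrm2 (1.78 ± 0.40) and Rad51ap1 (1.60 ± 0.55, not called), and the lowest those of Cdca7 (-0.57 ± 0.16), Pola1 (-0.32 ± 0.18) and Gins2 (-0.31 ± 0.24), none of which was called.

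**Figure D3:**
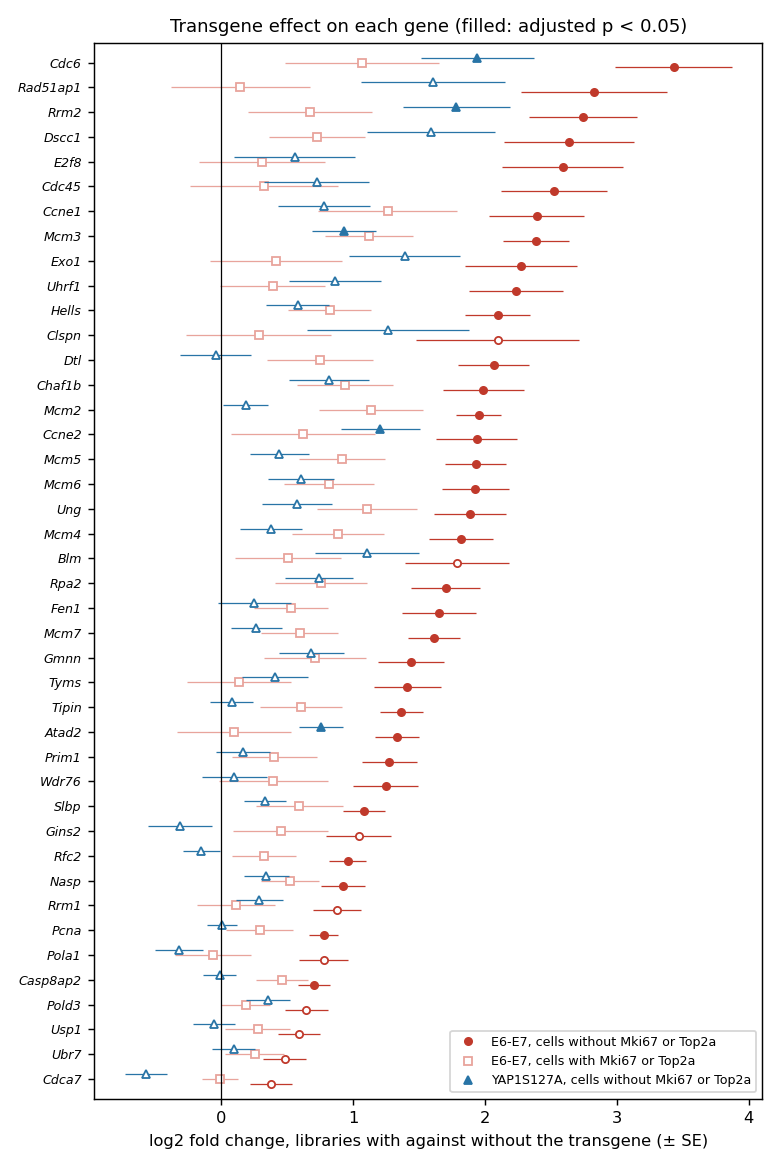
Log2 fold change (x axis, bars are SE) of each of the 42 genes (y axis) for E6-E7 in cells without Mki67 or Top2a (circles) and with them (squares), and for YAP1S127A in cells without them (triangles), from the additive model over 8 libraries. Filled symbols passed an adjusted p under 0.05: 33 circles, no square and 5 triangles, and all 42 circles lie to the right of 0.

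Cells without a UMI of Mki67 or Top2a need not be outside the division cycle, so 25 other mitosis genes were measured in them. Their UMIs summed to 1.15 and 1.09 per 10000 in N, 1.32 and 0.910 in E, 1.14 and 1.32 in Y, and 4.56 and 5.97 in EY. The ranges of this sum overlapped among N, E and Y, while both EY libraries lay above the other 6. These sums were not tested. Gene by gene, EY against N called 22 of the 25 higher in unmarked cells (median log2 fold change 2.84), where 9.51% of all genes were called higher. E against N called 0 of the 25 (median 0.11), where 0.416% of all genes were called higher. The part of cells in division in the EY values was not tested. In cells without a UMI of Mki67, Top2a or any mitosis gene, a selection added after these values were seen, the 42 genes summed to 5.08 and 4.57 per 10000 in N (584 and 64 cells), 13.3 and 9.34 in E (726 and 86 cells), and 4.54 and 5.51 in Y (209 and 139 cells). EY retained only 11 and 25 such cells, at 6.73 and 9.47. The E6-E7 fit on these cells, from which EY1 was dropped for its few cells, called 3 of the 32 genes that could still be tested, where 16 of all 9734 genes were called higher. All 32 log2 fold changes were positive with a median of 1.23, against -0.03 over all genes. E against N called 0 of 36 in these cells (edgeR, 30 under 0.05 unadjusted, median 1.41) and EY against N 0 of 36 (9 unadjusted, median 0.97, 27 positive). As a background, neutrophils in the 5 libraries with enough of them held 2.21 to 2.98 UMIs of the 42 genes per 10000.

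The same UMIs were also counted cell by cell, which is no independent result. Cells were classed before thinning, and those with fewer than 4000 UMIs were left out. This kept 64 of 87 unmarked cells in EY1 and 1711 of 1723 in N1. When each unmarked cell was thinned to 4000 UMIs, the number of different genes of the 42 seen in a cell averaged 2.20 and 2.03 in N, 5.33 and 4.01 in E, 2.17 and 2.43 in Y, and 4.86 and 5.79 in EY. Cells with at least 5 of them made up 9.76 and 11.2% in N, 51.2 and 33.5% in E, 11.05 and 16.0% in Y, and 46.9 and 54.6% in EY. As for the sum, every E6-E7 library was above every other. In marked cells the averages were 5.21 and 2.88 in N, 8.83 and 4.97 in E, 5.27 and 8.96 in Y, and 7.66 and 10.0 in EY, which overlapped.

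**Figure D4:**
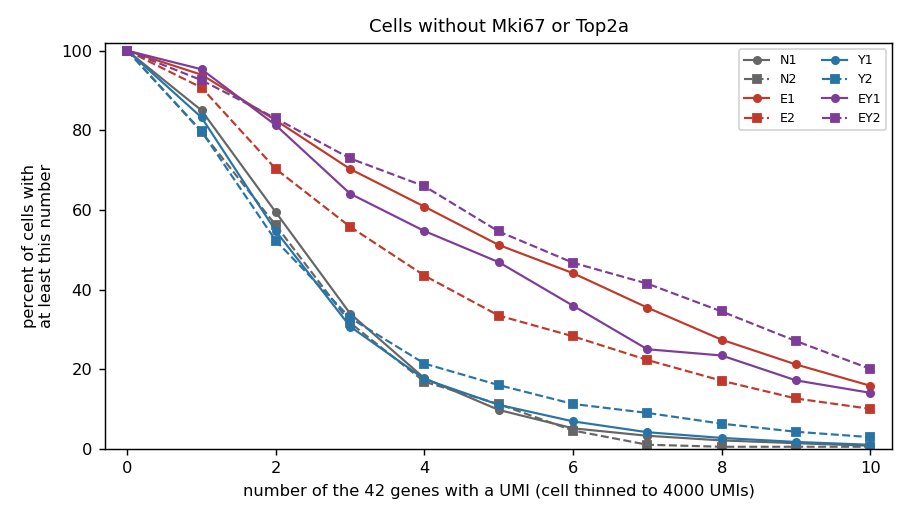
Percent of cells without Mki67 or Top2a (y axis) in which at least the given number of the 42 genes had a UMI (x axis; the last point is 10 or more) after thinning to 4000 UMIs, 1 line per library. At 5 genes the E and EY lines lie at 33.5 to 54.6% and the N and Y lines at 9.76 to 16.0%.

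Marked cells held more of these transcripts in every group. With the library as a block, all 42 genes were higher in cells with than without Mki67 or Top2a, where 13.6% of all genes were called higher, with a median log2 fold change of 1.30. The split is itself made by genes of dividing cells, so its direction is no independent result. All 25 mitosis genes and 46 of 52 other replication genes were also called higher. In single libraries Mcm2 and Gins2 (N2), Cdca7 (E1 and E2) and Cdc6 (EY1) were lower in marked cells. The split uses measured UMIs and so can follow depth. Median UMIs in unmarked cells were 12971 and 23337 in N, 11478 and 23374.5 in E, 17545 and 17781 in Y, and 9741 and 11872 in EY. In marked cells they were 14130 to 24090, higher than in unmarked cells in every library but N2 (22682 against 23337). The unmarked cells of E1, EY1 and EY2 were thus the shallowest, and the part of depth in the E6-E7 values was not tested. The highest log2 fold changes were those of Rad51ap1 (3.58 ± 0.37), Clspn (3.55 ± 0.31) and E2f8 (2.86 ± 0.33), and the lowest those of Cdca7 (0.35 ± 0.11), Ubr7 (0.46 ± 0.10) and Casp8ap2 (0.51 ± 0.08). The gap between marked and unmarked cells was not equal among libraries. The summed level was 2.97 and 1.58 times as high in marked cells in N, 1.90 and 1.37 in E, 2.90 and 4.36 in Y, and 1.57 and 1.78 in EY.

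The E6-E7 effect itself was smaller in marked than in unmarked cells. In marked cells alone, none of the 42 genes was called for E6-E7 (0.39% of all genes were higher), with a median log2 fold change of 0.52. Of the 42, 11 were under 0.05 unadjusted, as were 1356 of all 12036 genes. DESeq2 called 1, where it called 202 of all 12036 genes higher. A test of the difference between the effects called 10 of the 42, all lower in marked cells, where 0.282% of all genes were called lower, and all 42 differences were negative with a median of -1.04. The 10 were Mcm3, Mcm6, Rad51ap1, Uhrf1, Dscc1, Hells, E2f8, Cdc45, Chaf1b and Cdc6. Negative differences were not particular to the 42 genes. Of 52 other replication genes 6 were called lower (median -0.69, 5 positive), and of 25 mitosis genes 1 (median -1.55, 1 positive). The part of dividing cells left among the unmarked cells was not tested. For Mcm3 the effect was 2.38 in unmarked and 1.12 in marked cells, a difference of -1.27 ± 0.14 (adjusted p = 0.00298, edgeR). For Rad51ap1 it was 2.82 and 0.15, a difference of -2.72 ± 0.35 (adjusted p = 0.00692, edgeR). The number of calls was 1 without EY2, 3 without N1, 5 without Y1, without Y2 or without EY1, 22 without E1 and 30 without N2. For YAP, the same difference was called for none of the 42 (0.345% of all genes were lower and 0.0862% higher), with a median of 0.13. Of the 42, 9 were under 0.05 unadjusted, as were 1640 of all 12762 genes, and DESeq2 called 0. YAP in marked cells alone called none either (5.95% of all genes were higher), with a median of 0.72. In that fit 8 of the 42 were under 0.05 unadjusted, as were 3793 of all 12036 genes. There DESeq2 called 5 of the 42, where it called 1261 of all 12036 genes higher. EY against N in marked cells called 9, all higher (10.7% of all genes), a count that was 4 without N1 and 0 without N2 or EY2. Without the upper limits on UMIs and genes, YAP called 24 in marked cells, 23 higher and Cdca7 lower, where 3060 of all 13570 genes were called higher. The E6-E7 effect then differed for 29 of the 42, where 95 of all 13864 genes were called lower.

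Cells were also graded by their number of Mki67 plus Top2a UMIs, and the level was higher in the last class than in the first in all 8 libraries. From 0 to at least 10 such UMIs, the 42 genes went from 6.05 to 29.1 per 10000 in N1, from 5.81 to 19.7 in N2, from 6.20 to 30.0 in Y1 and from 6.94 to 38.0 in Y2. They went from 16.2 to 35.6 in E1, from 11.3 to 14.2 in E2, from 14.9 to 21.9 in EY1 and from 18.1 to 30.2 in EY2. In cells with exactly 1 such UMI, all 4 libraries with E6-E7 (15.4 to 28.5) were above all 4 without it (5.79 to 14.6), and with at least 10 the sets overlapped. EY1 had 8 cells in the last class. The course between the ends was uneven: N2 was at 5.79, 6.63 and 6.48 with 1, 2 to 3 and 4 to 9 such UMIs and rose only in the last class. The last class was below the one before it in E2 (16.9 and then 14.2), in EY1 (22.2 and then 21.9, after 26.8 at 2 to 3) and in EY2 (35.1 and then 30.2).

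**Figure D5:**
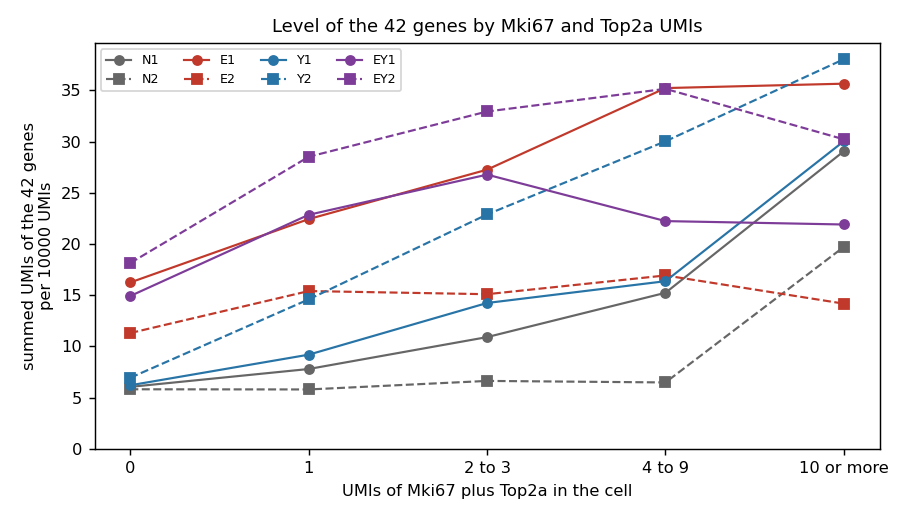
Summed UMIs of the 42 genes per 10000 UMIs (y axis, from 0) in cells grouped by their UMIs of Mki67 plus Top2a (x axis), 1 line per library. At 0 and 1 UMIs the E and EY lines lie above the N and Y lines, and at 10 or more they cross.

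Over all epithelial cells, where marked and unmarked cells were summed together, libraries of the same group differed widely and few calls were made. EY against N called 12 of the 42 higher, where 9.31% of all genes were called higher: the 6 MCM subunits, Hells, Ung, Nasp, Rpa2, Chaf1b and Casp8ap2. Mcm2 was at 12.1 and 5.72 CPM in N, 38.6 and 25.5 in E, 14.1 and 26.9 in Y, and 37.6 and 45.4 in EY, which gave 2.17 ± 0.44 for EY against N (adjusted p = 0.0209, edgeR). Mcm3 was at 29.4 and 14.3 CPM in N, 93.5 and 45.2 in E, 35.9 and 72.1 in Y, and 104 and 179 in EY (2.68 ± 0.54). For both, E2 lay below Y2, so that the groups with and without E6-E7 overlapped. Mcm4, Mcm5 and Mcm6 ran from 14.9 to 27.6 CPM in N and from 57.6 to 108 in EY. Hells was at 35.3 and 28.3 CPM in N, 120 and 67.1 in E, 51.4 and 113.9 in Y, and 114.5 and 179.0 in EY (2.20 ± 0.45). Ung was at 8.18 and 3.81 CPM in N, 28.8 and 19.8 in E, 11.1 and 25.7 in Y, and 28.2 and 35.7 in EY (2.36 ± 0.49). In both of these EY stood well above N, with E1 and Y2 near EY1. Nasp was at 106 and 91.3 CPM in N, 187 and 109.8 in E, 109.9 and 178 in Y, and 216 and 299.7 in EY (1.38 ± 0.33). None of the 12 was called without N1, without N2 or without EY2. Neither E against N (0.236% of all genes higher, 16 of the 42 under 0.05 unadjusted, 6 by DESeq2) nor Y against N (0.384%, 7 and 3) called any of the 42. The additive E6-E7 effect called none (0.434%, 23 and 8) with all 42 positive and a median of 0.81, and the YAP effect none (5.49%, 14 and 7) with 41 positive and a median of 0.75. These shares of all genes are those of edgeR. Under 0.05 unadjusted were 506 and 1649 of all 13555 genes for E and Y against N. For E6-E7 and YAP they were 1511 and 4156 of all 13122 genes. DESeq2 called 121 and 345 of all 13555 genes higher for E and Y against N. For E6-E7 and YAP it called 235 and 1506 of all 13122 genes higher. For E6-E7 the highest log2 fold changes were those of Ccne1 (1.62 ± 0.53), Mcm3 (1.52 ± 0.35) and Cdc6 (1.499 ± 0.62) and the lowest those of Cdca7 (0.17 ± 0.12), Pola1 (0.26 ± 0.28) and Ubr7 (0.39 ± 0.20). For YAP the highest were those of Cdc6 (1.57 ± 0.62), Mcm3 (1.16 ± 0.35) and Rad51ap1 (1.15 ± 0.61) and the lowest those of Cdca7 (-0.24 ± 0.12), Gins2 (0.08 ± 0.30) and Rfc2 (0.13 ± 0.20). EY against Y (0.0221%, 4 and 1), EY against E (7.97%, 2 and 0) and the interaction of the transgenes (0% of all genes, 1 and 0) called none. Of all 13555 genes, 3169 were under 0.05 unadjusted for EY against Y, 4857 for EY against E and 1562 for the interaction. For EY against Y, DESeq2 called 429 of all 13555 genes higher. These comparisons share libraries and are not independent of each other. The counts turned on the upper limits on UMIs and genes, which removed 2.10 to 64.7% of the epithelial cells of a library, most in EY1. Without those limits YAP called 30, of which 29 were higher and 1, Cdca7, was lower, where 3100 of all 14397 genes were called higher. EY against N then called 39, where 3052 of all 14816 genes were called higher. Without the filter on low counts E6-E7 and YAP each called 27, where 484 and 1700 of all 21743 genes were called higher.

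The share of marked cells was no clearer. Thinned to 2000 UMIs, 26.3 and 17.6% of epithelial cells in N, 28.9 and 16.3% in E, 18.5 and 30.5% in Y, and 23.7 and 46.4% in EY held Mki67 or Top2a. With E6-E7 the share was 28.8 ± 12.8% and without it 23.2 ± 6.23% (SD, n = 4 each; exact permutation test, two-sided, p = 0.543). With YAP1S127A it was 29.8 ± 12.1% against 22.3 ± 6.29% (exact permutation test, p = 0.371), and 0.543 was the adjusted p of both. The smallest p that 4 against 4 libraries allow is 0.0286. EY2 stood apart, with 87.8% marked cells before thinning against 44.7 to 54.7% in the other libraries, and without it the E6-E7 difference was -0.253 percentage points. The shares also depended on the upper limits on UMIs and genes. Without them, at 2000 UMIs, they were 27.0 and 34.7% in N, 29.2 and 21.0% in E, 28.1 and 40.1% in Y, and 44.4 and 50.2% in EY. The YAP1S127A difference was then 12.7 points (exact permutation test, p = 0.0857) and that of E6-E7 3.72 points (p = 0.657, same test). Neutrophils gave a background of 1.78 to 7.14% at the same depth.

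Other genes of the pathway were counted from lists kept apart from the 42. In unmarked cells, of 52 other replication genes 49 could be tested and 16 rose with E6-E7, with none lower and a median log2 fold change of 1.11. The 3 of lowest p were Gins1, a helicase cofactor (1.92 ± 0.22), the DNA ligase Lig1 (1.88 ± 0.23) and the licensing factor Cdt1 (1.89 ± 0.24). Gins1 was at 2.39 and 2.37 CPM in N, 10.5 and 6.84 in E, 2.46 and 2.87 in Y, and 10.97 and 10.1 in EY, and so split by E6-E7 like the 42. Of 24 RB and E2F genes 23 could be tested, with a median of 0.17: the kinase inhibitor Cdkn1c rose (1.75 ± 0.32) and cyclin D1, Ccnd1, fell (-0.69 ± 0.12). Ccnd1 was at 216 and 268 CPM in N, 144 and 145 in E, 353 and 396 in Y, and 212 and 266 in EY, lower with E6-E7 both without and with YAP1S127A, and the levels of N and EY overlapped. Of 25 mitosis genes 17 could be tested and Cdk1 alone rose (2.01 ± 0.38), with a median of 1.28 over the 17. Cdk1 was at 2.05 and 2.84 CPM in N, 5.86 and 3.73 in E, 3.09 and 3.37 in Y, and 25.6 and 22.7 in EY. Over all epithelial cells, none of these lists had a call for E6-E7. The lowest p were those of Cdkn1c, Rfc3 and Pole2 (adjusted p = 0.0588, 0.113 and 0.153, edgeR). For YAP the lowest p were those of Pold4 (0.62 ± 0.12), Ccnd1 (1.004 ± 0.20) and the kinase inhibitor Cdkn2b (-1.08 ± 0.23), all 3 called.

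The promoters of the 42 genes were searched for letters bound by E2F factors. The genes were listed for their part at G1/S, where E2F factors act, so a high share of such letters is no result of these data. RefSeq promoter windows (GRCm38.p6, 250 bases before to 50 after a start) were held for 32 of the 42 genes, and Mcm4, Gins2, Rfc2, Gmnn, Ccne2, Atad2, Exo1, Tipin, Dscc1 and Usp1 had none. The words TTTCCCGC, TTTGGCGC and TTTCGCGC were searched on both strands, and they can overlap. At least 1 of them was found for 14 of the 32 genes (43.8%) and for 573 of 27025 genes with a window (2.12%). The word CCAAT, bound by NF-Y, was found for 22 of the 32 (68.8%) and for 41.1% of all. Of the 14 genes with E2F letters 9 were called higher for E6-E7 in unmarked cells, with a median log2 fold change of 1.93, and of the 18 without them 16, with a median of 1.75. Calls were thus made both with and without these letters. The stretches below lie outside annotated exons and show the letters in capitals, 5' to 3' on the gene's strand, for helicase, licensing, chromatin and polymerase genes and for Dtl. They lie at chr8:75109341-75109382 (plus strand) for Mcm5, chr1:128359730-128359830 (minus) for Mcm6, chr11:98907998-98908035 (plus) for Cdc6, chr17:56304113-56304150 (plus) for Uhrf1, chr1:191575545-191575567 (minus) for Dtl and chrX:93632271-93632308 (minus) for Pola1. In Mcm5 and Mcm6 overlapping words run together, and Mcm6 has a further one nearer its start. Pola1, which has the letters, was not called.
Mcm5: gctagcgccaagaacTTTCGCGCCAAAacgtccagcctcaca
Mcm6: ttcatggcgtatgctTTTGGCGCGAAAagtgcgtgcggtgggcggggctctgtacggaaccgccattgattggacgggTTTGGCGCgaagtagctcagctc
Cdc6: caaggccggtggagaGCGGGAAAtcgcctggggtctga
Uhrf1: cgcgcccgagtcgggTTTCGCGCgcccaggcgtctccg
Dtl: aaagcgtgacgtcagTTTGGCGC
Pola1: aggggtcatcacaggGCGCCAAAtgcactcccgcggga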

How the data were processed

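The 8 deposited count tables hold UMI counts per gene and cell, which the authors made with Cell Ranger on the mm10 build, filtered to cells and not otherwise normalized. The labels and the study's methods name different versions of the 3' kit, so none is given here. Library totals ran from 46483469 to 102427359 UMIs. Cells were kept with 1000 to 5500 genes, no more than 30000 UMIs and a mitochondrial share of 7% or less. Doublets were marked with Scrublet (scanpy 1.11.5) as an alternative only, and since it marked at most 1.10% of cells it removed few. UMI counts were summed per library and cell class (at least 20 cells) and tested with edgeR 4.0.16 in R 4.3.3 (TMM, filterByExpr, quasi-likelihood, two-sided, Benjamini-Hochberg adjustment over all genes tested). Contrasts between groups came from a model of group means, transgene effects from an additive model, and comparisons of marked with unmarked cells were blocked by library. Scripts were tested on simulated data.

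The 42 genes and the other gene lists were chosen with earlier results of these data known. By the rule for named genes, values in every library are given for Mcm2 to Mcm7, Ccne1, Ccne2, Cdc6, Cdc45, Pcna, Rrm2, Uhrf1, Gmnn and E2f8 and for the 8 genes of lowest p in EY against N over epithelial cells. The 3 highest and 3 lowest log2 fold changes for each transgene and for marked against unmarked cells, and the 3 other pathway genes of lowest p for each transgene, are named. Values of other genes were chosen after they were seen. Alternatives were DESeq2 1.42.0, no low-count filter, thinning to 2000 UMIs, other cell limits, 2 UMIs to mark a cell and leaving out each library. The keratin minimum of 1%, which also left out cells with an immune UMI, was added after seeing the data. So were the cells without any mitosis gene and the contrasts of E and of Y with N in unmarked cells. The labels give 1 mouse number for most libraries and more than 1 for N2, which may be pooled. Elsewhere nothing tells whether libraries share a preparation day. Intervals between libraries measure the spread of these 2 per group. Of the gene IDs, 99.8% were found in GENCODE vM21, and 7 of the 42 genes overlap another gene on the same strand, where counts can be split.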

Additional observations from a re-analysis of the deposited data

Results flagged for a closer look

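For 10 of the 42 genes the E6-E7 effect differed between marked and unmarked cells by the test of the difference itself, within libraries (edgeR, 8 libraries). The median difference was also negative for 52 other replication genes (-0.69) and 25 mitosis genes (-1.55), so its direction was not particular to the 42. The log2 effect in cells with minus that in cells without Mki67 or Top2a was -1.27 for Mcm3, -1.10 for Mcm6, -1.31 for Hells and -1.09 for Chaf1b, all with an effect above 0.8 left in marked cells. It was -1.94 for Uhrf1, -2.00 for Dscc1, -2.14 for Cdc45, -2.19 for E2f8, -2.38 for Cdc6 and -2.72 for Rad51ap1. The log2 effect in marked cells of these 6 was 0.39, 0.72, 0.33, 0.31, 1.07 and 0.15 in the same order. In unmarked cells, N2 held 1 UMI of each of Cdc6, Cdc45 and E2f8, so their differences rest on few molecules.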

How the results depend on the processing

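No paired analysis was possible because the labels do not number the replicates, and the 1 and 2 used here only name the libraries in accession order. Unless given for all genes, counts are of the 42 genes. In unmarked cells, however, thinning left 32 tested against N and 31 for the transgene effects. Cells without any mitosis gene left 36 and 32, and thinned marked cells left 41 for the transgene effects. Over all epithelial cells, counts are given in the order DESeq2, no low-count filter, cells thinned to 2000 UMIs and no upper limits. E against N called 6, 26, 1 and 2, EY against N 25, 40, 31 and 39, and EY against Y 1, 22, 5 and 2. Of all 13555, 21743, 10136 and 14816 genes tested, E against N called 121, 275, 58 and 64 higher. EY against N called 1665, 2124, 1211 and 3052 of them higher, and EY against Y 429, 966, 374 and 226. E6-E7 called 8, 27, 2 and 1, and YAP 7, 27, 5 and 30. Of all 13122, 21743, 9701 and 14397 genes tested, E6-E7 called 235, 484, 80 and 35 higher. With keratins of at least 1% and no immune UMI, EY against N called 21, where 1471 of all 12858 genes were called higher. Y against N called 3, 25 and, without upper limits, 6, where 345, 760 and 956 of all genes were called higher. EY against E called 21 without the filter, 4 thinned and 19 without upper limits, and the interaction 3 without the filter. In either direction, these fits called 3918, 1996, 5729 and 672 of all genes. In unmarked cells, in the same order, E against N called 23, 34, 10 and 5, and 5 with at least 200 genes per cell. Among all genes it called 134, 266, 62, 66 and 54 higher in these settings. Y against N called 1 by DESeq2, 5 without the filter and 1 without upper limits, where 323, 729 and 562 of all genes were called higher. With keratins of at least 1% and no immune UMI, E against N called 11 and Y against N 1. Thinned, EY against N and E6-E7 each called 20, where 520 of all 7272 and 110 of all 6759 genes were called higher. YAP called 2 thinned, 8 by DESeq2 and 17 without the filter, each with Cdca7 lower. In either direction, YAP called 447, 1949 and 2627 of all genes in these 3 settings. In cells without any mitosis gene E6-E7 called 3, and E against N, EY against N and YAP 0. In marked cells EY against N called 17, 31, 20 and 26 (5 with 2 UMIs to mark a cell) and YAP 5, 27, 3 and 24. E6-E7 called 1 by DESeq2 and 18 without the filter. Among all genes, EY against N called 1294, 1910, 873 and 2793 higher, YAP 1261, 1587, 468 and 3060, and E6-E7 202 and 522. For marked minus unmarked, E6-E7 called 36 without the filter, 29 without upper limits, 6 with at least 200 genes and 22 with 2 UMIs. In the first 3 of these settings it called 253, 95 and 23 of all genes lower. YAP called 5, 3 and 1 without the filter, without upper limits and with 2 UMIs. In the first 2 of these it called 497 and 1293 of all genes in either direction. The calls among all genes moved with these settings too. For YAP over all epithelial cells, DESeq2 called 1506 of 13122 genes higher and the fit without the filter 1700 of 21743. Thinned it was 514 of 9701, and without upper limits 3100 of 14397. The cause of these shifts was not tested.

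Leaving out 1 library at a time, calls ranged from 0 to 18 for EY against N, 0 to 1 for YAP, and were 0 for the other contrasts over all cells. In unmarked cells they ranged from 0 to 8 for E against N, 1 to 37 for EY against N, 9 to 30 for E6-E7 and 0 to 6 for YAP. In marked cells they ranged from 0 to 10 for EY against N and 0 to 1 for YAP, for marked against unmarked from 40 to 42, and for the differences from 1 to 30 (E6-E7) and 0 to 1 (YAP). The share difference ranged from -0.253 to 9.80 points for E6-E7, reversed at -0.253 without EY2, and from 1.92 to 11.2 for YAP. Of all counts of calls and share differences under the alternatives, 227 stayed within their limits, 103 moved beyond them and 1 reversed. Called genes were also followed singly through each alternative in some of the comparisons. Of these checks of 1 gene in 1 setting, 767 kept the call, 294 lost it and 0 reversed. A planned keratin minimum of 5%, also with no immune UMI, left 0 to 41 cells per library and was not run. Cdc6, E2f8 and Cdc45 are limited by depth.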

Other observations

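Among the other pathway genes, EY against N in unmarked cells called 29 of 51 other replication genes higher and 22 of 25 mitosis genes, with 9.51% of all genes called higher. There, E against N called none of either list (medians 1.02 and 0.11 on the log2 scale). Over all epithelial cells, EY against N called 13 of 52 other replication genes and none of 25 mitosis genes (edgeR, medians 1.25 and 0.71), with 9.31% of all genes called higher.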
